A study of Arabidopsis thaliana with 4 samples.

Results

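The NGATHA transcription factors of *Arabidopsis thaliana*, *NGA1* to *NGA4*, were taken from the RNA‐Seq gene table by their locus identifiers, which gave 4 genes of 28642 loci. They are AT2G46870 (*NGA1*), AT3G61970 (*NGA2*), AT1G01030 (*NGA3*) and AT4G01500 (*NGA4*). The group was selected on its exon reads in *atx1setm* against the WT, that is, with this comparison already known, so the genotype values of these genes are given as a description, with no p. RNA came from whole roots of *atx1setm* seedlings and of WT seedlings of accession Wassilewskija (Ws), and each genotype had 2 libraries that the labels call biological replicates. The *atx1setm* line is the null mutant *atx1‐1* with a transgene for the H3K4 methyltransferase ATX1 whose catalytic SET domain is inactivated by tyrosine-to-alanine substitutions. Both genotypes are in the Ws background, and no source used here gives the promoter of the transgene or the number of lines. Seedlings were grown on vertical plates under long days without treatment. The labels give an age of 10 days post germination, RNA extraction is given as 8 to 10 days in the labels and the methods, and the sequencing methods give 8 days.

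NGATHA proteins are plant‐specific transcription factors with a B3 DNA‐binding domain, and they belong to the RAV family. In *Arabidopsis* they act redundantly. They are needed for the style and stigma of the pistil, where they promote auxin synthesis together with zinc finger proteins of the SHI/STY family, and they limit the growth of leaves and petals in parallel with TCP factors of the CIN class. NGA1 is also reported to activate *NCED3*, a gene of abscisic acid (ABA) synthesis, under drought.

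The 4 genes lie on 4 chromosomes. In the deposited TAIR10 coordinates, *NGA1* occupies chromosome 2 from 19260918 to 19262404, *NGA2* chromosome 3 from 22951463 to 22952851, *NGA3* chromosome 1 from 11649 to 13714 and *NGA4* chromosome 4 from 639247 to 640940. *NGA1* and *NGA2* each have 1 exon in the table, and *NGA3* and *NGA4* have 2. Their coding sequences were compared in the RefSeq copy of the genome, build TAIR10.1, because similar genes can exchange short reads. *NGA1* and *NGA2* were the most similar pair, with 73.6% identical bases over 831 aligned. *NGA3* and *NGA4* shared 68.6% over 918, and the other pairs 59.4% to 60.9%. The 60 coding bases most alike in all 4 genes are shown to make visible how they can be told apart, with capitals for the 48 bases identical in every gene. They lie at chr2:19261562-19261621 (plus strand) for *NGA1*, chr3:22952051-22952110 (plus) for *NGA2*, chr1:12569-12628 (minus) for *NGA3* and chr4:640037-640096 (plus) for *NGA4*, and are written 5′ to 3′ along the gene.
NGA1: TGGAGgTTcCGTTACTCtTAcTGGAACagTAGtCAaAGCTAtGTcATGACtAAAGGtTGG
NGA2: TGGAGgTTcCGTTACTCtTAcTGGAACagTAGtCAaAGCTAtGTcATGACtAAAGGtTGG
NGA3: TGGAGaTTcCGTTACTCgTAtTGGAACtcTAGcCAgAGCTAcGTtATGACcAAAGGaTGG
NGA4: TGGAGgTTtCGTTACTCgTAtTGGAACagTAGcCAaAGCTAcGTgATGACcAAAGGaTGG

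In this stretch *NGA1* and *NGA2* have the same letters. Windows of 50 bases, the number of sequencing cycles, were taken in the exons annotated in RefSeq. The RefSeq genes reach beyond the deposited coordinates for *NGA1* (19260906 to 19262533), *NGA2* (22951323 to 22953265) and *NGA4* (639247 to 640976). Of these windows, 14 of 1579 in *NGA1* and 14 of 1894 in *NGA2* had another exact match in the genome, against 0 of 1807 in *NGA3* and 0 of 1429 in *NGA4*. The nearest window of another member differed by 3 bases from *NGA3* and by 3 from *NGA4*. No source used here says how reads from such shared windows were counted.

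The 250 bases before the start annotated in RefSeq are shown for *NGA2* and *NGA3*, the members with lower read counts in *atx1setm*. For *NGA2* this start is 22951323, whereas the deposited start is 22951463. Capitals mark runs of at least 12 bases found on the same strand in the same window of another member, a criterion set after the sequences were seen. The sequences are from RefSeq (TAIR10.1), at chr3:22951073-22951322 (plus strand) and chr1:13715-13964 (minus strand).
NGA2 upstream: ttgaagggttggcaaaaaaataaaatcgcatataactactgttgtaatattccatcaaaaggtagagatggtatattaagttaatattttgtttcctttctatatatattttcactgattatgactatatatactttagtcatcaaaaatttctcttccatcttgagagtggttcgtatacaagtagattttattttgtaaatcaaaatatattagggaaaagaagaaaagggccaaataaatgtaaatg
NGA3 upstream: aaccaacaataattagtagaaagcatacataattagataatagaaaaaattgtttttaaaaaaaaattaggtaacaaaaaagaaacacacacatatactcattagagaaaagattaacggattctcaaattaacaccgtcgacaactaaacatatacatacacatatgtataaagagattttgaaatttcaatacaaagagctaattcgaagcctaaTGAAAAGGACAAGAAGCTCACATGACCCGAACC

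The *NGA2* window had no run of this length in common with another member. The *NGA3* window had 2 such runs in common with *NGA4*, of 19 and 17 bases. Exact copies of each were found in 2 of 27443 promoters of this length, those of *NGA3* and *NGA4*. The *NGA1* window holds a similar but not identical stretch, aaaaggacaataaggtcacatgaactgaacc, which this criterion does not mark. Guanine and cytosine made up 26.4% of the *NGA2* and 28.4% of the *NGA3* window, against a median of 31.2% over all promoters. The motifs searched on both strands were CACCTG, bound by the B3 domain of RAV1, GTGGNCCC, bound by TCP factors of the CIN class, the G‐box CACGTG and the repeat GAGAGA. None was found in the windows of *NGA1*, *NGA2* or *NGA3*, and GAGAGA was found 2 times, overlapping, in that of *NGA4*. These motifs occurred in 2.6%, 0.7%, 6.5% and 20.6% of all promoters, in the order named.

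Libraries held 38574293 to 46439122 exon reads. *ATX1* itself, whose transgene maps to the same locus, had 475 and 270 exon reads in *atx1setm* and 731 and 388 in the WT, and was not called as different (log2 fold change −0.53 with an SE of 0.34, and an adjusted p of 0.701 in the quasi‐likelihood test of edgeR). All 12 root markers, among them the meristem gene *WOX5* and the endodermal gene *CASP1*, passed the filter on low counts. Green shoot markers summed to 178 and 553 CPM (counts scaled by library size and TMM factor) in *atx1setm* replicates 1 and 2 and to 280 and 488 CPM in WT replicates 1 and 2, so that replicate 2 was higher in both genotypes. Of 7 regulators of leaves and floral organs, *FIL*, *YAB2*, *YAB3*, *YAB5* and *JAG* had 0 to 5 exon reads in every library. The other genes of this list were *NUB*, with 32 and 52 reads in *atx1setm* and 2 and 2 in the WT, and *AS2*, with 111 and 97 in *atx1setm* and 137 and 89 in the WT. The part of these tissues in the NGATHA values was not tested.

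*NGA2* was the most abundant member in all 4 libraries and had far fewer reads in the mutant. It had 21 and 22 exon reads in *atx1setm*, against 127 and 131 in the WT. Scaled to library size with TMM factors, this was 0.450 and 0.571 CPM in *atx1setm* and 2.58 and 3.36 CPM in the WT. The libraries of the genotypes did not overlap, and the lowest WT value lay well above the highest *atx1setm* value. The means were 0.511 ± 0.0858 CPM in *atx1setm* and 2.97 ± 0.555 CPM in the WT (SD, n = 2 each), a fitted log2 fold change of −2.54 (SE 0.39) or 5.80‐fold lower. Of the 20714 genes that passed the filter, 142 had a more negative log2 fold change.

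*NGA3* showed the same direction at a lower level. It had 17 and 16 exon reads in *atx1setm* and 82 and 72 in the WT. In normalised counts these were 0.364 and 0.416 CPM in *atx1setm* and 1.66 and 1.85 CPM in the WT, again with no overlap between genotypes. The means were 0.390 ± 0.0362 CPM in *atx1setm* and 1.75 ± 0.130 CPM in the WT (SD, n = 2 each), with a fitted log2 fold change of −2.16 (SE 0.38) or 4.48‐fold lower, and 229 genes had a more negative one. Of its reads, 1 and 0 in *atx1setm* and 5 and 3 in the WT crossed the exon junction, and intron reads were 0 and 0 in *atx1setm* and 0 and 1 in the WT.

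*NGA1*, the member closest to *NGA2* in sequence, had nearly the same number of reads in both genotypes. It had 8 and 13 exon reads in *atx1setm* and 10 and 14 in the WT. The corresponding levels were 0.171 and 0.338 CPM in *atx1setm* and 0.203 and 0.359 CPM in the WT, and the genotypes overlapped. The fitted log2 fold change was −0.14 (SE 0.60), and its direction was not fixed, at 0.28 without *atx1setm* replicate 1, 0.32 without WT replicate 2, and −0.66 and −0.51 without *atx1setm* replicate 2 and WT replicate 1. In both genotypes replicate 2 had the higher value, as in the green shoot markers, and the part of shoot tissue in this was not tested.

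*NGA4* was at the limit of detection. It had 0 and 1 exon reads in *atx1setm* and 1 and 0 in the WT, did not pass the filter, and no fold change is given. A count of 0 allows up to 3 reads, which for this gene corresponds to 0.0464 RPKM (exon reads relative to the length of the exons and to the size of the library) in *atx1setm* replicate 1 and 0.0516 RPKM in WT replicate 2.

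**Figure D1:**
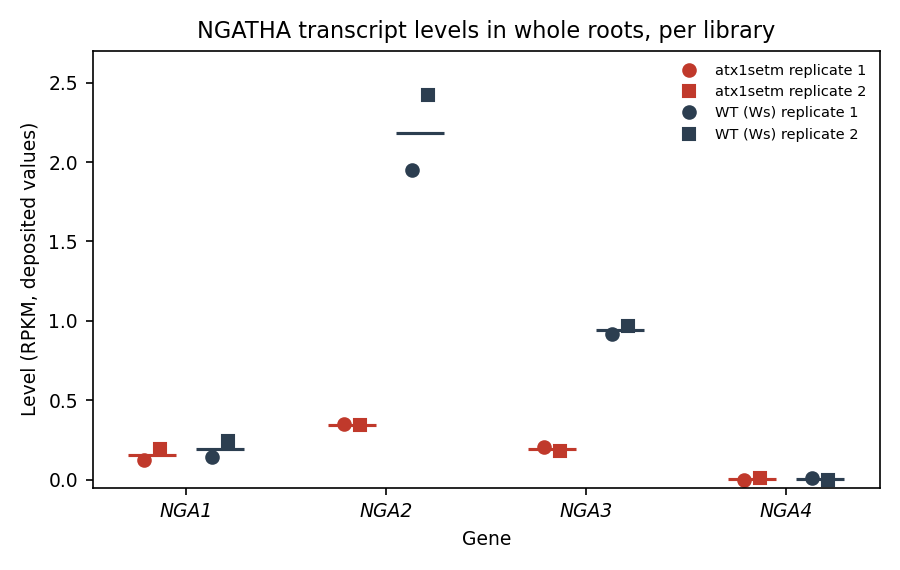
Level of each NGATHA gene in RPKM (y axis, linear) in the 2 *atx1setm* libraries (red, left) and the 2 WT libraries (dark, right), with a point per library and a line at the mean of 2. *NGA2* and *NGA3* lie lower in both *atx1setm* libraries than in both WT libraries, *NGA1* overlaps between genotypes, and *NGA4* is at or near 0 in all 4.

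As the members were chosen with this comparison known, no test result is given for them. A fitted fold of at least 3 towards lower was reached by *NGA2*, *NGA3* and 2.21% of all genes tested, and nothing is read from this count. Libraries that do not overlap and are lower in *atx1setm* were found for 20.0% of all genes tested, so this pattern alone is common with 2 libraries a group. In whole roots, fewer cells that express a gene and less RNA per cell cannot be told apart.

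Compared per length, the members were well separated in the WT and less so in the mutant. In the WT, *NGA2* had 2.18 ± 0.334 RPKM, *NGA3* 0.943 ± 0.0375 RPKM and *NGA1* 0.192 ± 0.0695 RPKM (SD, n = 2 each). *NGA2* was thus above *NGA3*, and *NGA3* above *NGA1*, by more than the spread between libraries. In *atx1setm*, *NGA2* had 0.348 ± 0.000847 RPKM, *NGA3* 0.195 ± 0.0152 RPKM and *NGA1* 0.158 ± 0.0479 RPKM (SD, n = 2 each). *NGA2* was again the highest, at 21 and 22 exon reads against 17 and 16 for *NGA3*, whereas *NGA3* and *NGA1* did not differ beyond their spread. The SD of 0.000847 is from 2 libraries and does not measure counting error at such counts. In CPM the SD of *NGA2* in *atx1setm* was 0.0858 on a mean of 0.511. The ratio of *NGA3* to *NGA1* in RPKM was 1.66 and 0.961 in the *atx1setm* libraries and 6.40 and 4.01 in the WT libraries. The ratio of *NGA2* to *NGA3* moved less, at 1.69 and 1.89 in *atx1setm* and 2.12 and 2.50 in the WT. All members were low for this tissue. Among loci with any reads, 29.8% had a lower WT mean RPKM than *NGA2*, and 16.8% had a lower *atx1setm* mean.

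Added up, the family had 46 and 52 exon reads in *atx1setm* and 220 and 217 in the WT, or 1.17 ± 0.258 CPM in *atx1setm* and 5.01 ± 0.782 CPM in the WT (SD, n = 2 each). *NGA1* made up 17.4% (95% Clopper‐Pearson interval 7.82% to 31.4%) and 25.0% (14.0% to 39.0%) of these reads in *atx1setm*, against 4.55% (2.20% to 8.20%) and 6.45% (3.57% to 10.6%) in the WT. *NGA2* made up 45.7% (30.9% to 61.0%) and 42.3% (28.7% to 56.8%) in *atx1setm*, against 57.7% (50.9% to 64.3%) and 60.4% (53.5% to 66.9%) in the WT. The share of *NGA3* was 37.0% and 30.8% in *atx1setm* and 37.3% and 33.2% in the WT. These intervals cover counting error only and are not a test between genotypes, as the members were chosen with this comparison known. A share also depends on the reads of the other members. *NGA1* itself had 8 and 13 exon reads in *atx1setm* and 10 and 14 in the WT. The point values of *NGA1* and of *NGA2* did not overlap between genotypes and those of *NGA3* did, but intervals of *NGA1* (*atx1setm* replicate 1) and of *NGA2* overlapped with those of the WT.

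**Figure D2:**
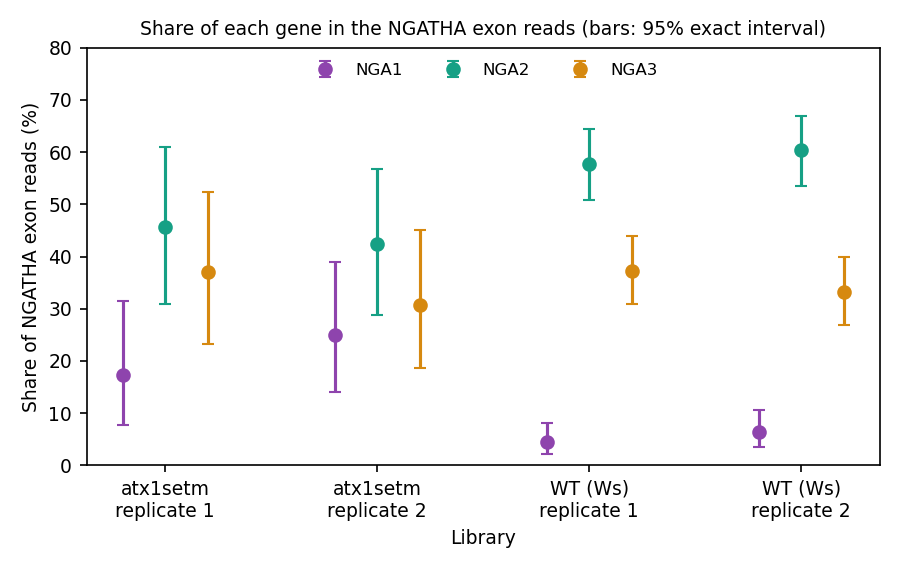
Share of *NGA1*, *NGA2* and *NGA3* in the summed NGATHA exon reads (y axis, percent) in each of the 4 libraries, *atx1setm* on the left, with bars for the 95% Clopper‐Pearson interval. *NGA1* holds 17.4% and 25.0% in *atx1setm* and 4.55% and 6.45% in the WT, and *NGA3* keeps a share of 30.8% to 37.3% in all libraries.

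Genes with the most similar pattern over the 4 libraries were sought by the root mean square difference of log2 CPM, each gene centred on its own mean. A small count was added before the log, which pulls low levels together, so distances for genes with few reads are not those of plain log2 CPM. Nearest to *NGA2* were AT1G09750, at a difference of 0.0800, and AT2G24800, at 0.0813. AT1G09750 had 1194 and 1114 exon reads in *atx1setm* and 6104 and 5873 in the WT, and AT2G24800 had 3 and 3 in *atx1setm* and 28 and 28 in the WT. Their fitted log2 fold changes were −2.33 and −3.13, against −2.54 for *NGA2*. The small distance of AT2G24800 thus depends on the added count. Nearest to *NGA3* were *PRP3*, which encodes a proline‐rich wall protein of root hairs, at 0.0438, and the carbonic anhydrase gene *ACA1*, at 0.0557. *PRP3* had 5587 and 5275 exon reads in *atx1setm* and 23431 and 20417 in the WT. *NGA2* and *NGA3* differed from each other by 0.216, with 27 of 20713 genes nearer to *NGA2* and 61 nearer to *NGA3*. The members were chosen with the genotype difference known, and this difference makes up most of both patterns. Nothing is therefore read from these counts, and shared regulation was not tested. Nearest to *NGA1* were the photosystem I gene *PSAD-2*, at 0.0246, and the glucosyltransferase gene *IAGLU*, at 0.0259. *PSAD-2* had 189 and 274 exon reads in *atx1setm* and 226 and 305 in the WT, higher in replicate 2 of both genotypes, like *NGA1*. The pattern of *NGA1* rests on few counts, 8 and 13 in *atx1setm* and 10 and 14 in the WT. Deviations of same‐numbered libraries had a correlation of 0.71 over genes, so such a replicate pattern is not particular to *NGA1*. All the nearest genes named are matches over 4 libraries and were not tested.

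The loci beside the members gave the local context. *PPa3*, a gene for a soluble inorganic pyrophosphatase, lies 5642 bases from *NGA1* and had 164 and 110 exon reads in *atx1setm*, against 682 and 712 in the WT. Its log2 fold change was −2.33 (SE 0.30), with an adjusted p of 0.106 by edgeR's quasi‐likelihood test and of 1.05e-06 by the exact test (1.84e-15 to 0.157 over the alternatives). *NGA1* beside it did not share this difference. On the other side of *NGA1*, *PAP14* had 0 and 1 reads in *atx1setm* and 0 and 0 in the WT. The tested neighbour of *NGA2*, AT3G61980, had a fitted change of 0.16 on the log2 scale (SE 0.33), and AT3G61962 had 0 reads in every library. Beside *NGA3*, *ARV1* had 0.01 (SE 0.36) and the miRNA processing gene *DCL1* −0.48 (SE 0.59). Beside *NGA4*, *PPa5* had 0.18 (SE 0.32) and *ARV2* 0.67 (SE 0.38). None of these last 5 was called by any of the 3 tests. No annotated locus in the table overlaps a member.

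Genes related to NGATHA by family or pathway were compared over all genes, and their counts stand beside the following shares of the 20714 genes tested. After Benjamini‐Hochberg adjustment at 0.05, 0.0% of all genes were called in edgeR's quasi‐likelihood fit. Before adjustment, 9.71% had a p under 0.05, 4.78% lower and 4.93% higher. The exact test of edgeR called 3.94%, of which 2.24% of all genes were lower and 1.71% higher. DESeq2 called 3.22%, with 1.75% lower and 1.46% higher.

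Other members of the RAV family came first. Of 9 listed, 7 passed the filter, with a median log2 fold change of −0.10 against −0.01 over all genes tested. The NGATHA‐like genes *NGAL2* (*SOD7*) and *NGAL3* (*DPA4*), which limit seed size and shape the leaf margin, had the smallest p. *NGAL2* had 285 and 262 exon reads in *atx1setm* and 643 and 574 in the WT, or 6.46 ± 0.493 CPM in *atx1setm* and 13.9 ± 1.19 CPM in the WT (SD, n = 2 each). Its log2 fold change was −1.10 (SE 0.25), with an adjusted p of 0.244 by edgeR's quasi‐likelihood test and of 0.0481 by the exact test (2.69e-04 to 1.00 over the alternatives). *NGAL3* had 23 and 15 exon reads in *atx1setm* and 74 and 49 in the WT, a log2 fold change of −1.63 (SE 0.39), with adjusted p of 0.273 and 0.0309 (7.48e-04 to 1.00). Neither gene overlapped between genotypes, a pattern found in this direction for 20.0% of all genes tested. By the exact test 2 genes of the list were lower and 0 higher, beside 2.24% and 1.71% of all genes. DESeq2 called neither *NGAL2* nor *NGAL3*. The third NGATHA‐like gene, *NGAL1*, had a log2 fold change of −0.10, and the RAV genes with an AP2 domain, *RAV1*, *TEM1*, *TEM2* and *EDF3*, had −0.33, 0.19, −0.09 and 0.56. These 5 values were chosen after they were seen, to complete the family. The 3 *VAL* genes, B3 repressors of the seed program, had −0.34 to −0.03. The seed regulators *ABI3*, *FUS3* and *LEC2* did not pass the filter.

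*NCED3*, the reported target of NGA1, had fewer reads in *atx1setm*. This gene for the rate‐limiting dioxygenase of ABA synthesis had 303 and 214 exon reads in *atx1setm* and 1455 and 1079 in the WT. The levels were 6.03 ± 0.661 CPM in *atx1setm* and 28.6 ± 1.29 CPM in the WT (SD, n = 2 each), with no overlap. The log2 fold change was −2.25 (SE 0.25), or 4.74‐fold lower, with an adjusted p of 0.0902 by edgeR's quasi‐likelihood test, of 5.27e-08 by the exact test and of 5.74e-07 by DESeq2 (2.83e-17 to 0.133 over the alternatives). The 9 ABA synthesis genes all passed the filter and had a median of −0.49. By the exact test 1 was lower and 0 higher, beside 2.24% and 1.71% of all genes, and DESeq2 had the same counts, beside 1.75% and 1.46%. *NCED6* had 18 and 32 exon reads in *atx1setm* and 8 and 4 in the WT, with an adjusted p of 0.354 by edgeR's quasi‐likelihood test. *NCED3* and *PPa3*, like *NGA2*, are among the loci the study listed on these libraries, so their direction is not independent evidence.

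Genes that act with NGATHA in the style had values in both directions. Of 10 SHI/STY genes, 9 passed the filter, with a median log2 fold change of 0.74 against −0.01 over all genes. *SHI* had 197 and 209 exon reads in *atx1setm* and 94 and 87 in the WT, with a fitted log2 value of 1.22 (SE 0.32, quasi‐likelihood adjusted p = 0.306 in edgeR). *SRS5* had 907 and 654 in *atx1setm* and 420 and 409 in the WT, with 0.94 (SE 0.25, quasi‐likelihood adjusted p = 0.316 in edgeR). With adjustment over all genes, edgeR's quasi‐likelihood test, its exact test and DESeq2 called 0 of the list. Without adjustment, 4 genes were higher and 1 lower with a quasi‐likelihood p under 0.05, beside 4.93% and 4.78% of all genes. The one lower was *SRS3* (−1.18), named after its value was seen. Of 5 bHLH genes of the style and carpel margin, *HEC1* and *SPT* passed the filter. *SPT* had 265 and 303 exon reads in *atx1setm* and 562 and 492 in the WT, with a log2 fold change of −0.83 (SE 0.29). *HEC1* had 15 and 7 in *atx1setm* and 34 and 24 in the WT, with −1.35 (SE 0.48). Neither was called over all genes by edgeR's quasi‐likelihood test, its exact test or DESeq2.

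CIN‐class TCP genes and auxin synthesis genes completed the comparison. Of 8 TCP genes, 6 passed the filter, with a median log2 fold change of −1.29, and the exact test and DESeq2 each had 3 lower and 0 higher, beside 2.24% and 1.75% of all genes lower. *TCP2* had 47 and 32 exon reads in *atx1setm* and 738 and 544 in the WT (log2 fold change −3.97, SE 0.30, adjusted p = 0.0837 by edgeR's quasi‐likelihood test and 3.84e-17 by the exact test). *TCP24* had 146 and 60 in *atx1setm* and 1335 and 749 in the WT (−3.30, SE 0.45, adjusted p = 0.113 and 3.62e-08). The study named both from these libraries, so the count of this list is not independent evidence. Of 14 genes of the TAA1 and YUCCA pathway, 9 passed the filter, with a median of −0.05. *YUC3* had 177 and 157 exon reads in *atx1setm* and 510 and 427 in the WT, and *YUC2*, a gene reported downstream of NGATHA in flowers, had 36 and 27 in *atx1setm* and 11 and 6 in the WT. The exact test called *YUC3* lower (adjusted p = 0.0049) and *YUC2* higher (adjusted p = 0.0263), and DESeq2 called only *YUC3*, for which the adjusted p was 0.0167.

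Over the 7 lists together, 45 of 61 genes passed the filter. After adjustment over all genes, 0 were called in edgeR's quasi‐likelihood fit, while 13 lower and 6 higher had a p under 0.05 before it, beside 4.78% and 4.93% of all genes. The exact test had 7 lower and 1 higher, beside 2.24% and 1.71% of all genes tested, and DESeq2 had 5 lower and 0 higher, beside 1.75% and 1.46%. The lower genes in each of these counts include *TCP2*, *TCP24* and *NCED3*. The study listed these genes from the same libraries, so the pooled counts are not independent evidence.

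**Figure D3:**
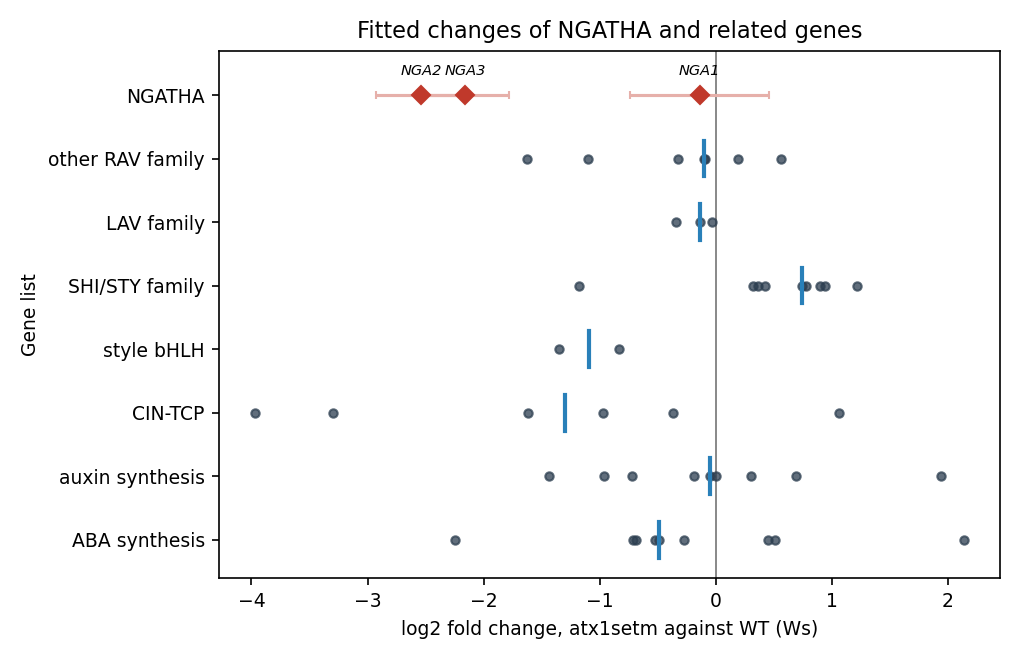
Fitted log2 fold change of *atx1setm* against the WT (x axis) for the 3 NGATHA genes that passed the filter (red, with SE bars) and for the genes of 7 related lists (dark points, 1 per gene), with a blue line at the median of each list. *NGA2* and *NGA3* lie at −2.54 and −2.16, *NGA1* near 0, and list medians run from −1.29 for the TCP genes to 0.74 for the SHI/STY genes.

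**Figure D4:**
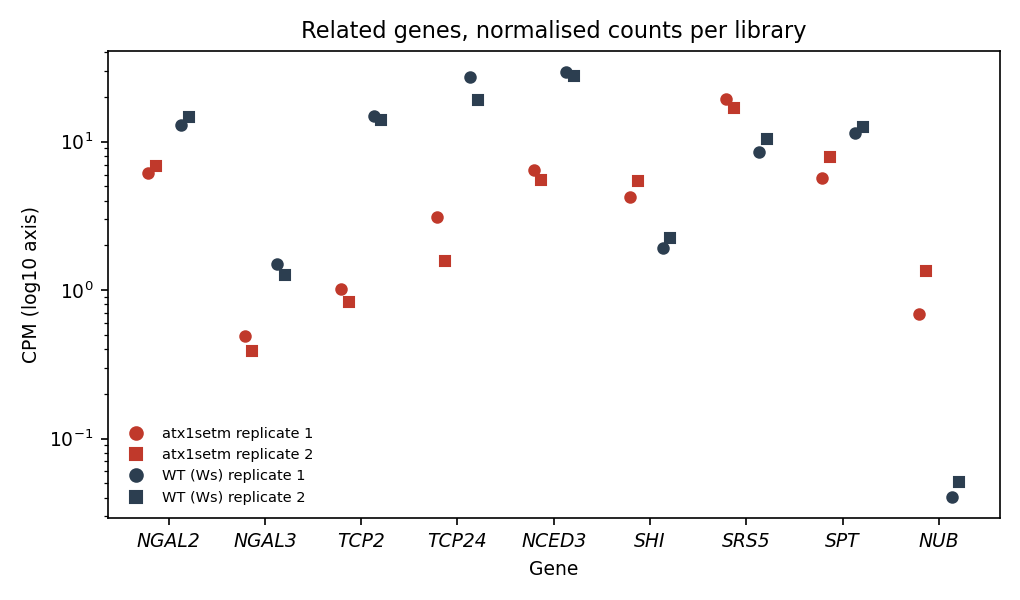
Normalised counts in CPM (y axis, log10 scale) of 9 named genes in the *atx1setm* libraries (red, left) and WT libraries (dark, right), a point per library. *NGAL2*, *NGAL3*, *TCP2*, *TCP24*, *NCED3* and *SPT* lie lower in both *atx1setm* libraries, and *SHI*, *SRS5* and the leaf and floral organ regulator *NUB* lie higher.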

How the data were processed

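RNA from whole roots of 2 *atx1setm* and 2 WT samples was read in 50 single‐end cycles. The authors name CLC Genomics Workbench for read quality and mapped the reads to build TAIR10, and the submitters' processing notes name FastQC. No source used here gives mapping settings, the counting program or the use of strand. The deposited exon, gene, intron and junction reads are raw counts, and the deposited RPKM, made by the authors, is scaled by exon length and reads mapped to genes. The columns with the authors' own test (p-value, its correction and fold change) were not used, and 51 per‐sample columns were left out. Gene names were matched in the RefSeq table for TAIR10.1 (28009 of 28642 loci).

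Exon reads were filtered by filterByExpr of edgeR 4.0.16 (20714 genes kept), scaled by TMM (factors 1.09 and 0.855 for *atx1setm*, 1.06 and 1.01 for the WT) and compared by the quasi‐likelihood test with the legacy fit in R 4.3.3, two‐sided, adjusted by Benjamini‐Hochberg over all genes. SE is the log2 fold change divided by the square root of F. CPM are normalised counts. The 14 alternatives include DESeq2 1.42.0, edgeR's exact test and limma 3.58.1. The code for the fits was tested on simulated counts with known changes, and every value given is from the deposited counts. Coding sequences were aligned with MAFFT 7.526. The labels call the replicates biological, but nothing says they came from separate cultures, so p-values measure the spread between these samples. Genes named are the members, up to 2 genes per list by smallest p, the nearest locus on each side of a member and the 2 genes nearest in pattern. Members and lists were chosen with earlier results of these data known.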

Additional observations from a re-analysis of the deposited data

How the results depend on the processing

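The 0 genes called by edgeR's quasi‐likelihood test became 81 with no filter on low counts, 666 with DESeq2, 817 with the exact test and 3888 with the replicate block. Without 1 library it was 951 (*atx1setm* replicate 2), 4566 (*atx1setm* replicate 1), 146 (WT replicate 1) or 245 (WT replicate 2), where the lone library of a genotype is assumed to vary like the other. The 0 related genes called became 2, 5, 8 and 21 under the first 4 settings, and 3 to 14 without 1 library (3 without either WT replicate, 8 without *atx1setm* replicate 2, 14 without *atx1setm* replicate 1). The other alternatives (RLE normalization, library totals, gene reads, limma‐trend and a minimum of 10 counts in every library) gave 0 for both. *HEC1* and *SPT* were called only with the replicate block. This block rests on a shared number only: deviations of same‐numbered libraries had a correlation of 0.71 over genes, but no source says that the number marks a batch.

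The log2 fold change of *NGA2* was −2.72 to −2.32 and that of *NGA3* −2.24 to −2.07 without 1 library. On log2(RPKM + 0.5) *NGA2* had −1.66 and *NGA3* −1.05, and on log2(RPKM + 0.1) *NGA3* had −1.82, as a pseudocount pulls low levels together. *NGA1* had −0.66 to 0.32 without 1 library and could not be fitted with at least 10 counts in every library. *NGA4* was given no fold change under any setting. The depth limits the values of *NGA1*, with at most 14 reads in a library and an SE of 0.60, and of *NGA4*.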

Other observations

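Among the root markers, the quiescent centre gene *WOX5* had 222 and 187 exon reads in *atx1setm* and 87 and 67 in the WT, a log2 fold change of 1.46 (SE 0.30) that edgeR's exact test called higher (adjusted p = 0.011, beside 0.0416 by DESeq2 and 0.199 by the quasi‐likelihood test). *WER*, a MYB gene of hairless epidermal cells, had 425 and 292 in *atx1setm* and 831 and 581 in the WT, with −0.93 (SE 0.25) and was not called by any of these tests. Of 12 root markers, the exact test had 1 higher and 0 lower, beside 1.71% and 2.24% of all genes. Their median log2 fold change was −0.26, with a range from −0.93 for *WER* to 1.46 for *WOX5*.

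*NUB*, which acts in leaf and floral organ growth with *JAG*, had 32 and 52 exon reads in *atx1setm* and only 2 and 2 in the WT. The exact test called it higher (adjusted p = 1.61e-05), and so did DESeq2 (adjusted p = 0.00235), beside 1.71% and 1.46% of all genes. The quasi‐likelihood test of edgeR did not call it (adjusted p = 0.127). The study lists this locus from the same libraries.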
